A study of Mus musculus with 12 samples.

Results

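Gene expression at both ends of beta-cell maturation was compared in 7 of the 12 samples of a mouse array study: 4 samples taken at E18.5 (days of embryonic age, shortly before birth) and 3 taken from adults aged 5 weeks. The samples were chosen by their titles alone. All 7 came from mice heterozygous for a Pdx1-GFP allele, in which Pdx1 sequences drive green fluorescent protein, bred to the outbred ICR strain, and no other allele or agent is labelled. Islets were dissociated with trypsin, and cells were sorted on fluorescence alone, so a cell was included because the Pdx1 promoter was active in it. The labels do not give litters or pooling of animals, and so the p-values speak only of the scatter among the samples, part of which may be technical. The remaining samples, 3 at postnatal day 1 (P1) and 2 at postnatal day 10 (P10), entered the estimate of that spread and are used below to place a change in time. Differences are coded adult minus E18.5 on a log2 scale, so 1 unit is a doubling, and are given ± standard error.

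Beta cells are the islet cells that make and store insulin and release it when glucose rises. Around birth they already hold insulin but respond weakly to glucose, and they divide often. After birth they slow their division, lose proteins of the fetal pancreas and gain the secretory and metabolic equipment of the adult cell, and the comparison asks how gene expression differs between these states. Pdx1 is also made by part of the somatostatin cells of the islet and, before birth, by endocrine progenitors, so cells of these kinds can pass the same sort.

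Of 9555 genes tested, 3766 (39.4%) differed between the ages at an adjusted p under 0.05 (limma, Benjamini-Hochberg over all genes tested). Higher levels in adults were found for 1730 genes (18.1%) and lower levels for 2036 (21.3%). The counts of list members given below are to be read beside these 2 shares. The 4 E18.5 and 3 adult values of a gene did not overlap for 42.2% of the genes tested, and the median difference over all genes was -0.0095. A change of at least 2-fold was reached by 306 of the genes that rose and 434 of those that fell. With arrays centred on their medians in place of quantile normalization, 1200 genes were higher and 2658 lower, with a median difference of -0.11. On the 7 arrays, 42.9% to 48.1% of probes exceeded background. Samples of the same age correlated across genes with r from 0.978 to 0.991, and samples of different ages with r from 0.904 to 0.927, a description, since genes are no independent replicates. The number of arrays limits the precision. The plot of differences against adjusted p shows both sides and the genes named on it.

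**Figure D1:**
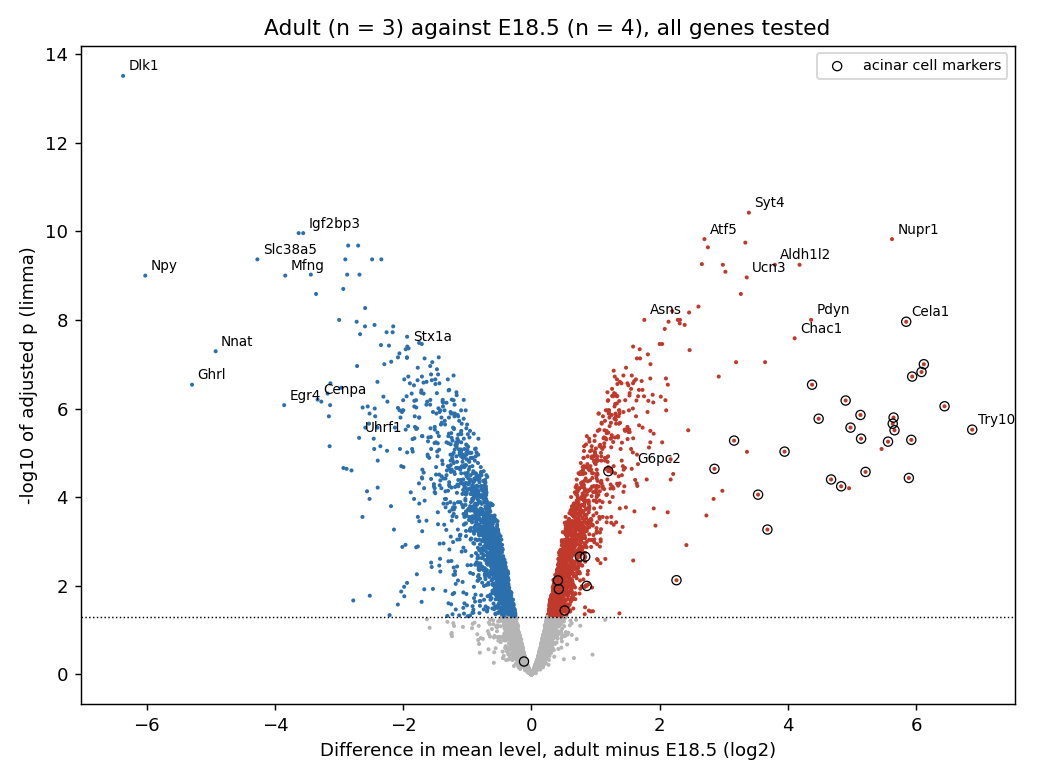
Difference in mean log2 level, adult minus E18.5, against -log10 of the adjusted p from limma for 9555 genes; red points are the 1730 genes that rose, blue points the 2036 that fell, grey points did not pass the threshold (dotted line), and circles mark acinar cell markers. Most circles lie at the far right of the plot, where Nupr1, no acinar marker, lies too, and Dlk1, Npy and Ghrl lie farthest left.

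Identity of the sort was checked on beta-cell genes. Ins2, which encodes insulin, had levels of 13.39, 13.48, 13.48 and 13.42 in the 4 E18.5 samples and 13.53, 13.42 and 13.58 in the 3 adult samples. It thus lay close to the top of the scale in every sample, a top that quantile normalization makes the same on every array. Iapp, Slc2a2, G6pc2, Nkx6-1 and Pdx1 were above background in all 7 samples, so the samples carried beta-cell RNA at both ages. Sst, the somatostatin gene of delta cells, lay at 13.14 to 13.58 at E18.5 and 12.52 to 13.39 in adults. Gcg of alpha cells reached 13.42 in adult replicate 1. Hormone RNA of other islet cells was thus nearly as bright as Ins2, and these levels do not measure how pure the sort was. Markers of other cells were present as well and moved with age. Of 35 acinar markers, mostly digestive enzymes of exocrine cells, 34 rose and 1, Nr5a2, did not pass, at -0.12 ± 0.13 (adjusted p = 0.51). Their median difference was 4.83, and their mean level ran from 4.84 to 5.94 over the E18.5 samples and from 8.83 to 10.01 over the adult samples. The elastase gene Cela1 (chromosome 15) had levels of 6.73, 5.91, 5.54 and 5.78 in the 4 E18.5 samples and 11.28, 12.49 and 11.74 in the 3 adult samples, a 57.51-fold rise. The trypsinogen gene Try10 rose 117-fold, Zg16 of the zymogen granule 67.9-fold and Prss2 61.3-fold, from E18.5 levels above background in 3 of 4 samples for Try10 and 2 of 4 for the other two, so these folds rest partly on background. In all, 14 of the 15 largest rises were acinar markers. Several trypsinogen genes are near-identical copies whose probes may share RNA, so values for single members are uncertain. In bulk samples, more cells of a type and more RNA per cell cannot be told apart.

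Markers of other cell types moved less and mostly downward where they passed, against 21.3% lower over all genes. Of 11 markers of the islet's other endocrine cells (alpha, delta, PP, epsilon), 1 rose, 5 fell and 5 did not pass the test, and adult replicate 3 had a mean level of 8.23 against 9.34 and 9.45 in the other adult samples and 9.78 to 10.50 at E18.5. Gcg, the glucagon gene of alpha cells, stood at 13.42, 13.24 and 9.36 in the 3 adult samples, and did not pass the test at -0.59 ± 0.71 (adjusted p = 0.55). Of 20 endothelial and stromal markers 0 rose, 10 fell and 10 did not pass the test, with mean levels from 5.05 to 6.73 at E18.5, highest in replicates 2 and 3, and from 4.82 to 4.94 in adults. Leaving out 1 sample moved the count that fell from 10 to between 3 and 14, with 3 without E18.5 replicate 2, or without adult replicate 1, 2 or 3, and 4 without E18.5 replicate 3. The collagen gene Col4a1 fell by 1.32 ± 0.17 (adjusted p = 3.2e-05), and Sparc, made by stromal cells, was at least 3.43-fold lower in adults, where it was above background in 0 of 3 samples. With the deposited values as log2, 1 higher and 2 lower of these markers were called. Of 12 duct markers 0 rose, 6 fell and 6 did not pass the test, with the keratin genes Krt8 at -1.26 and Krt7 at -0.71. Of 9 blood cell markers 0 rose, 2 fell and 7 did not pass the test, a share of falls near that over all genes, and the count that fell was 1 without adult replicate 2, and 6 without E18.5 replicate 4. Hba-a1, above background in 2 of 3 adult samples, fell by 1.98 ± 0.60 (adjusted p = 0.017), and without adult replicate 2 the p was 0.089. Of 2 neural markers 1, Elavl4, rose and 1, Stmn2, fell, and the fall lost its call when any sample but E18.5 replicate 4 was left out. Of 4 sex-linked markers 0 passed the test, but their levels differed among the samples of an age. Xist (chromosome X) was 8.66, 6.13 and 4.85 and Kdm5d (chromosome Y) 4.44, 5.55 and 6.10 in the 3 adult samples. In the 4 E18.5 samples Xist was 5.39, 7.26, 6.86 and 6.41 and Kdm5d 5.67, 4.78, 5.48 and 5.26. The part of sex in the scatter among samples was not tested. The plot of marker means gives the level of the lists drawn there in every sample.

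**Figure D2:**
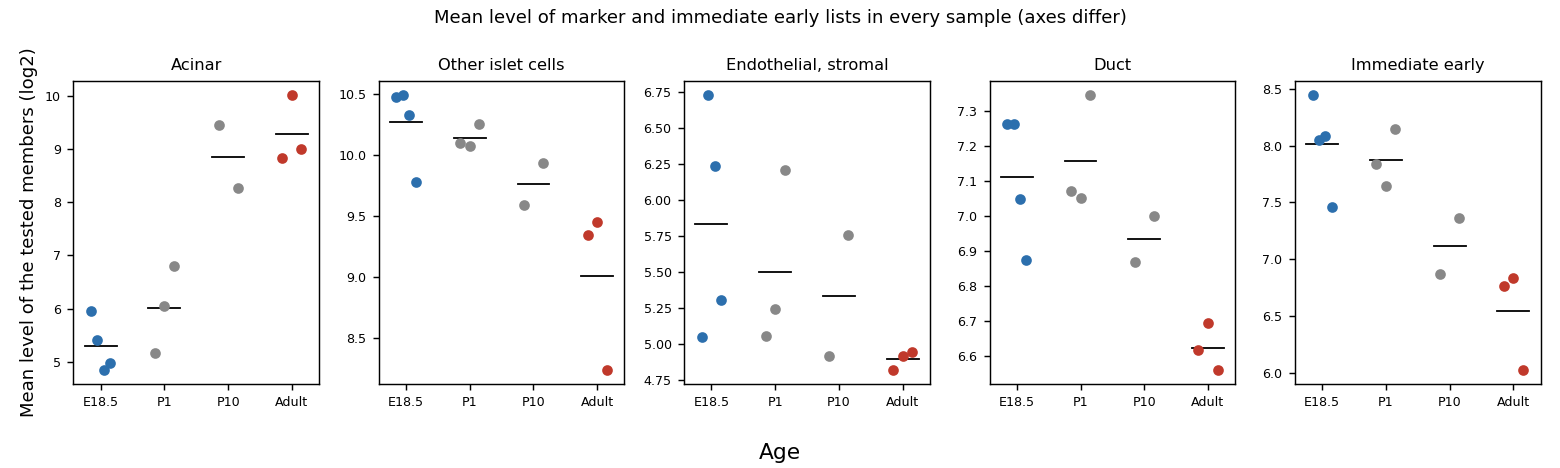
Mean log2 level of the tested members of 5 lists in each sample at the 4 ages; points are samples, bars are means of an age, and the vertical axes differ. Acinar means lie at 4.84 to 5.94 at E18.5 and 8.83 to 10.01 in adults, and adult replicate 3 is lowest for the markers of other islet cells and for the immediate early genes.

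When the acinar mean was added to the fit as a term, it left 138 genes called, 61 higher and 77 lower. The acinar means of the ages compared do not overlap, so that term shares most of its variation with age. Of 191 called genes that were carried through every alternative, 33 kept their call and direction in it. Values in that fit are given below beside the genes that kept their call, and the other called genes carried through lost it. Of 148 that lost it with the same sign, 66 had a difference as large as before or larger and 132 one of over 50% of it, such as Zfp36 at -4.15 (adjusted p = 0.07), Egr4 at -4.26 (adjusted p = 0.06), Dapl1 at 3.22 (adjusted p = 0.057) and Krt8 at -1.70 (adjusted p = 0.057). Among genes without such a value below, the call was kept by Cela1 at 2.54 (adjusted p = 0.0023), Zg16 at 1.51 (adjusted p = 0.043), Nrep at -3.999 (adjusted p = 0.00018), Nfil3 at -2.61 (adjusted p = 0.036), Cdk2 at -1.83 (adjusted p = 0.048) and Mars1 at 1.48 (adjusted p = 0.04), and by Igf2bp3 (adjusted p = 0.00032). Cela1 and Zg16 are themselves members of the acinar list.

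Genes of the mature beta cell rose in part. Of 27 genes of glucose sensing, insulin production and beta-cell maturity, 12 rose, 2 fell and 13 did not pass the test, with a median difference of 0.24. The member with the largest rise was Ucn3 (chromosome 13), which encodes urocortin 3, a peptide of mature beta cells. Its levels were 6.60, 6.49, 6.92 and 6.53 in the 4 E18.5 samples and 10.14, 10.14 and 9.70 in the 3 adult samples, with no overlap and a 10.3-fold rise of 3.36 ± 0.16 (adjusted p = 1.1e-09). With the acinar term its difference was 3.21 (adjusted p = 0.0032). G6pc2, an islet glucose-6-phosphatase, had levels of 10.34, 11.28, 11.32 and 11.31 in the 4 E18.5 samples and 12.57, 12.75 and 12.57 in the 3 adult samples, a 2.96-fold rise (adjusted p = 2.3e-05), and E18.5 replicate 1 lay below the other E18.5 samples. Iapp, the amyloid peptide secreted with insulin, rose by 0.86 ± 0.24 (adjusted p = 0.0097), but without adult replicate 3 the p was 0.055.

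Several members with a place in the insulin granule also rose, while others, given below, did not. The granins Scg2 and Chga, acidic proteins that help form granules, rose 3.48-fold and 1.64-fold. Scg5, a chaperone of the prohormone convertase PC2, rose 2.09-fold, Pcsk1n, an inhibitor of the convertase PC1/3, 2.22-fold, and Ptprn, the granule membrane protein IA-2, 2.20-fold. Ero1b, an oxidase that drives disulfide bonds in proinsulin, rose 2.69-fold. Trpm5, a cation channel opened by calcium, rose by 0.97 ± 0.15 (adjusted p = 0.00012). The members that fell were Sytl4, the granule protein granuphilin, by 0.97 ± 0.12, and Gpr119, a lipid receptor that raises cyclic AMP and was above background in 1 of 3 adult samples, by 0.60 ± 0.16. The adjusted p of Gpr119 was 0.0091, and 0.054 without adult replicate 3.

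Several genes at the core of glucose sensing did not pass the test. The glucose transporter gene Slc2a2 stood at 0.14 ± 0.15, the zinc transporter gene Slc30a8 at 0.099 ± 0.12, Abcc8, the sulfonylurea receptor of the potassium channel, at 0.026 ± 0.16 and the convertase gene Pcsk1 at -0.022 ± 0.13. Ins2 stood at 0.066 ± 0.088 (adjusted p = 0.59). Median centring gave a call (0.40, adjusted p = 0.0054), as did the deposited values taken as log2 (0.46, adjusted p = 0.0016), since quantile normalization gives the brightest probes nearly the same value on every array. Gipr and Pcsk2 have no probe named here, and Syt7 did not pass the filter on dim probes.

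Few transcription factors of the islet passed the test. Of 17 such genes 2 rose (11.8%), 3 fell (17.6%) and 12 did not pass the test (median -0.18), against 18.1% and 21.3% over all genes. The count that rose was 0 without adult replicate 3, and 1 without E18.5 replicate 2, 3 or 4, or without adult replicate 1 or 2, and the count that fell was 5 without E18.5 replicate 4. Myt1, a zinc finger factor of endocrine differentiation, had levels of 9.20, 9.37, 9.44 and 9.19 in the 4 E18.5 samples and 7.94, 8.17 and 8.06 in the 3 adult samples and fell by 1.24 ± 0.11 (adjusted p = 6.3e-07). Nkx6-1, which maintains beta-cell identity, fell by 0.60 ± 0.13 (adjusted p = 0.0021), with every adult sample below every E18.5 sample. Nkx2-2, another homeodomain factor of islet cells, fell by 0.57 ± 0.13 (adjusted p = 0.0036), but the mean of its probes gave a p of 0.051. Etv1 was at least 1.17-fold higher in adults (adjusted p = 0.0035), above background in 2 of 3 adult and 0 of 4 E18.5 samples. St18, a relative of Myt1, rose by 0.53 ± 0.18 (adjusted p = 0.028), and that call ended without any 1 of 6 of the samples compared (E18.5 replicates 2, 3 and 4 and adult replicates 1, 2 and 3), with adjusted p from 0.054 to 0.084. The insulin gene activators Pdx1 at -0.12 ± 0.13, Neurod1 at 0.12 ± 0.13 and Mafa at 0.25 ± 0.22 did not pass. Mafa was 6.20, 4.95 and 5.60 in the 3 adult samples, and without the low adult replicate 2 it stood at 0.57 (adjusted p = 0.027). Isl1 stood at -0.46 ± 0.18 (adjusted p = 0.051) and was called in 9 of the alternatives, with adjusted p down to 0.0076.

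**Figure D3:**
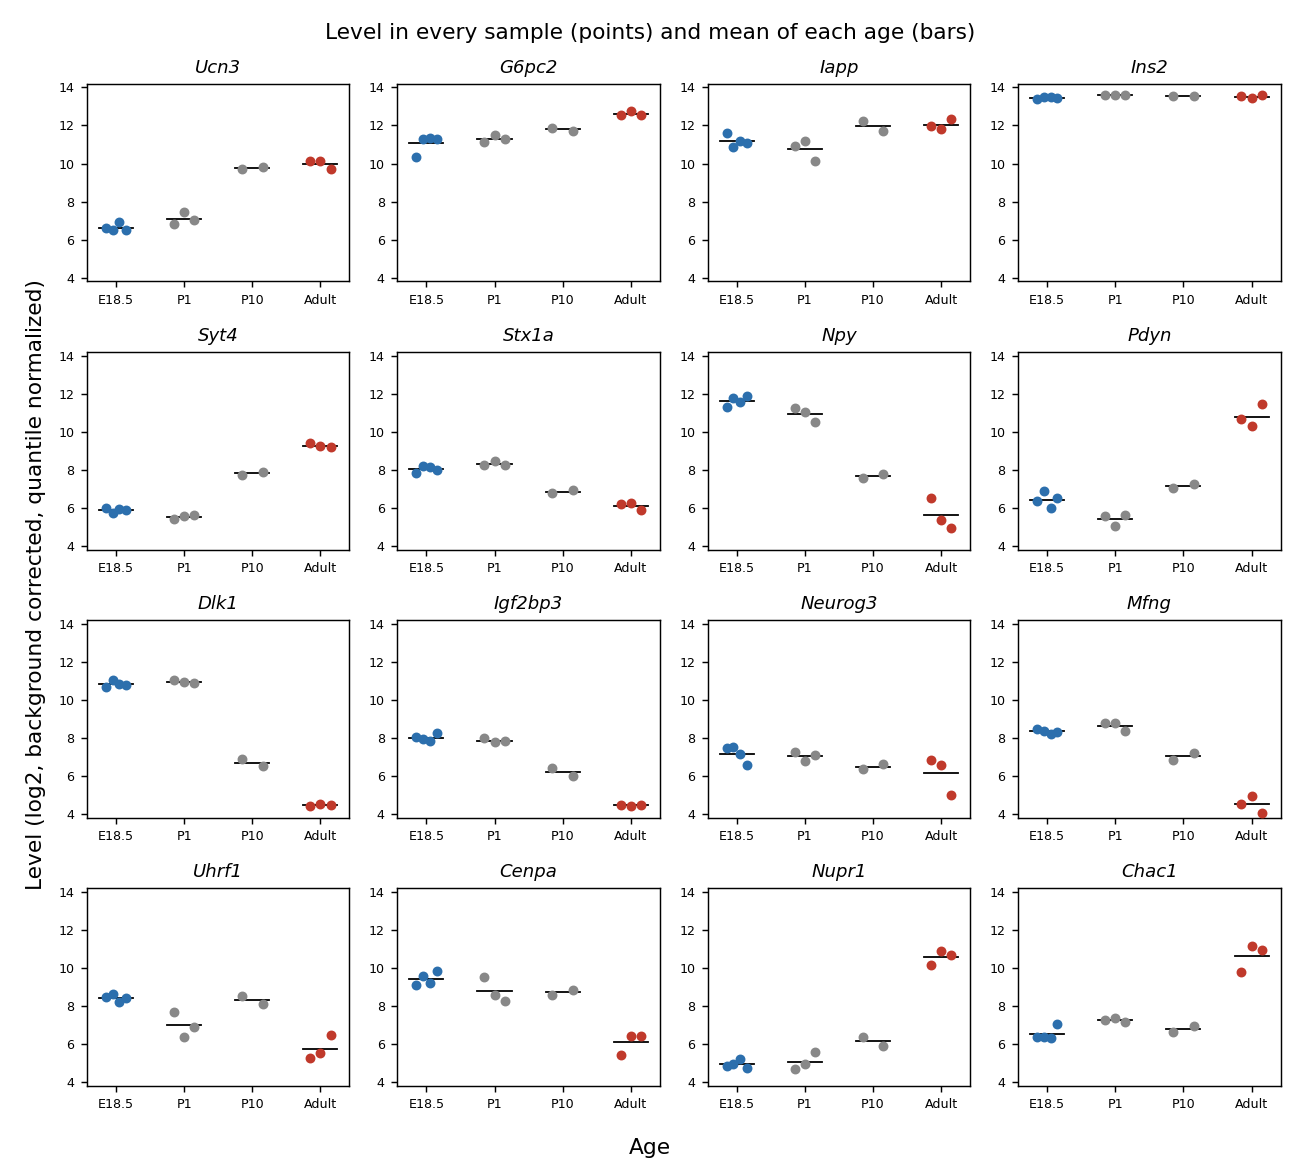
Log2 level of 16 genes in each of the 12 samples; points are samples (blue E18.5, red adult, grey P1 and P10), and bars are means of an age. Syt4, Ucn3, Pdyn, Nupr1 and Chac1 are higher and Npy, Dlk1, Igf2bp3, Mfng, Uhrf1 and Cenpa lower in every adult sample than in any E18.5 sample, while Ins2 stays between 13.39 and 13.58.

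In the machinery of vesicle fusion, some isoforms changed in opposite directions. Synaptotagmins sense calcium on vesicles, and syntaxins and VAMPs form the complex that fuses vesicle and plasma membrane. Of 28 genes of exocytosis and granule traffic 9 rose (32.1%), 5 fell (17.9%) and 14 did not pass the test. Over all genes 18.1% rose and 21.3% fell, so calls in both directions are not particular to this list. The list median of 0.036 turned to -0.097 with median centring and to -0.011 with the deposited values as log2. Syt4, a synaptotagmin that does not bind calcium in the usual way, had levels of 5.99, 5.71, 5.95 and 5.86 in the 4 E18.5 samples and 9.38, 9.26 and 9.17 in the 3 adult samples. It rose 10.50-fold (adjusted p = 3.8e-11), the smallest p of the list, and the spread within an age was small beside the gap. Stx1a, the syntaxin of the plasma membrane, had levels of 7.82, 8.18, 8.14 and 7.98 in the 4 E18.5 samples and 6.19, 6.24 and 5.86 in the 3 adult samples and fell by 1.94 ± 0.13 (adjusted p = 4e-08). Doc2b, a calcium sensor of release with high affinity, fell 5.28-fold, above background in 2 of 3 adult samples, and Vamp3 fell 2.14-fold. Vamp2, the main VAMP of insulin granules, rose by 0.58 ± 0.12, Syt5 by 0.93 ± 0.13 and Cadps2, which primes vesicles, by 1.18 ± 0.11. Rab3d, a small GTPase that is also abundant on acinar granules, rose by 0.90 ± 0.16, in the samples in which acinar markers rose, and their part in its rise was not tested. With the acinar term Syt4 stood at 3.33 (adjusted p = 0.0002), Stx1a at -1.81 (adjusted p = 0.035) and Vamp2 at 1.34 (adjusted p = 0.04).

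Of 24 ion channel genes of excitability 7 rose (29.2%), 4 fell (16.7%) and 13 did not pass the test, against 18.1% and 21.3% over all genes. With median centring the counts of this list were 5 higher and 5 lower. Cacna1h, a calcium channel of the T type that opens at low voltage and was above background in 2 of 3 adult samples, had levels of 7.78, 7.63, 7.46 and 7.05 in the 4 E18.5 samples and 6.03, 5.48 and 4.84 in the 3 adult samples and fell by 2.03 ± 0.25 (adjusted p = 2e-05). Itpr3, a calcium channel of the endoplasmic reticulum, fell by 1.23 ± 0.13 (adjusted p = 5.3e-06). The auxiliary potassium channel subunit genes Kcnip1 and Kcnmb2 rose 2.26-fold and 1.81-fold.

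Peptide hormones other than insulin held some of the largest differences. Npy (chromosome 6), which encodes neuropeptide Y, an inhibitor of insulin release, had levels of 11.30, 11.78, 11.56 and 11.86 in the 4 E18.5 samples and 6.51, 5.35 and 4.94 in the 3 adult samples. It fell by 6.02 ± 0.28 (adjusted p = 1e-09), or 64.99-fold, and every adult sample lay far below every E18.5 sample. Pdyn (chromosome 2), the precursor of dynorphin opioids, went the other way, from a mean of 6.43 ± 0.37 (SD, n = 4) at E18.5 to 10.66, 10.28 and 11.44 in the 3 adult samples. The rise was 20.6-fold (adjusted p = 1e-08, limma). Its mean at P1, 5.41, lay below that at E18.5, 6.43, so the rise came after P1. Both kept their call with the acinar term, Npy at -4.54 (adjusted p = 0.0066) and Pdyn at 4.87 (adjusted p = 0.0036). Gal, which encodes galanin, also an inhibitor of insulin release, fell by 1.70 ± 0.18 (adjusted p = 4.2e-06), and Gast, which encodes gastrin, a hormone of the fetal islet that was above background in 1 of 3 adult samples, fell by 0.94 ± 0.22 (adjusted p = 0.0034). Ghrl (chromosome 6), the ghrelin gene of epsilon cells, had levels of 10.37, 10.61, 10.05 and 8.20 in the 4 E18.5 samples and 4.32, 4.62 and 4.61 in the 3 adult samples. E18.5 replicate 4 was the lowest at that age and still far above the adult samples. Ghrl was above background in 0 of 3 adult samples and at least 30.1-fold lower in adults (adjusted p = 2.9e-07).

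The hormones of the lasting islet cell types did not move as one. Sst of delta cells stood at -0.25 ± 0.18 and Ppy of PP cells at 0.66 ± 0.62, and neither passed. Sst lay close to the same top of the normalized scale as Ins2, so a difference in it could be hidden. Without adult replicate 3, Ppy stood at 1.75 (adjusted p = 0.0026), and its levels in the 3 adult samples were 12.34, 11.92 and 8.85. Pyy, a related peptide, fell by 1.25 ± 0.41 (adjusted p = 0.026), but leaving out E18.5 replicate 2 or 3 gave a p of 0.053 or 0.055. Slc38a5, an amino acid transporter listed with the alpha cell markers, had levels of 12.60, 12.80, 12.57 and 12.80 in the 4 E18.5 samples and 7.97, 8.28 and 9.01 in the 3 adult samples. It fell by 4.27 ± 0.18 (adjusted p = 4.3e-10), or 19.3-fold, and stood at -4.09 (adjusted p = 0.0017) with the acinar term.

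Genes of fetal growth fell in part, some of them far. Imprinted genes are expressed from the copy of 1 parent, and many act on growth before birth. Of 19 imprinted and fetal growth genes 2 rose, 10 fell and 7 did not pass the test, with a median of -0.50. Dlk1 (chromosome 12), a membrane protein that holds back differentiation, had the smallest adjusted p of all genes tested. Its levels were 10.67, 11.03, 10.81 and 10.76 in the 4 E18.5 samples and 4.39, 4.501 and 4.45 in the 3 adult samples, at background in all 3 adults, and it was at least 60.47-fold lower there (adjusted p = 3.1e-14). Nnat, which encodes neuronatin, a small membrane protein of the endoplasmic reticulum, fell 30.4-fold (adjusted p = 5.1e-08). Grb10, an adaptor that restrains insulin signalling, fell 10.9-fold, and Cdkn1c, the cell cycle inhibitor p57, 6.04-fold. Grb10 stood at -3.97 (adjusted p = 0.0005) and Cdkn1c at -2.35 (adjusted p = 0.021) with the acinar term, and Dlk1 also kept its call (adjusted p = 4.5e-07).

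Not every imprinted gene followed. Igf2, the fetal insulin-like growth factor, had levels of 8.90, 11.18, 10.47 and 9.83 in the 4 E18.5 samples and 7.97, 7.57 and 6.83 in the 3 adult samples and fell by 2.63 ± 0.44 (adjusted p = 0.00028). Its highest E18.5 levels were in replicates 2 and 3, the samples with the highest stromal mean, and the part of stromal RNA in the fall was not tested. Mest, an imprinted gene of mesoderm, fell 5.27-fold with the same replicates highest at E18.5 and above background in 1 of 3 adult samples. The members that rose were Snrpn, a splicing factor gene, by 1.38 ± 0.14, and Impact, which encodes an inhibitor of the kinase GCN2, by 0.70 ± 0.13.

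RNA-binding proteins of the fetus showed the same direction. Of 7 tested genes of fetal RNA binding and growth control 1 rose, 5 fell and 1 did not pass the test. Igf2bp3, which binds Igf2 and other messages, had levels of 8.02, 7.95, 7.83 and 8.24 in the 4 E18.5 samples and 4.47, 4.40 and 4.48 in the 3 adult samples and was at least 8.64-fold lower in adults (adjusted p = 1.1e-10). Its relative Igf2bp1 was at least 2.67-fold lower, and both were above background in 0 of 3 adult samples. Arid3b and Arid3a, DNA-binding proteins that act with Lin28 in other cells, fell by 0.81 and 0.79. The member that rose was Sall4, a zinc finger gene of early embryos, by 0.79 ± 0.12 (adjusted p = 9.8e-05), and Nrep, a neuronal regeneration protein gene outside the list, fell 12.4-fold from levels of 11.27, 11.52, 11.55 and 11.36 to 7.59, 8.13 and 7.66.

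Endocrine progenitors pass through a Notch-controlled stage in which Neurog3 sets the endocrine fate. Of 18 progenitor genes 1 rose, 10 fell and 7 did not pass the test (median -0.51), and of 15 Notch pathway genes 1 rose, 9 fell and 5 did not pass the test (median -0.38). The progenitor gene that rose was Cdkn1a, and that count was 0 without E18.5 replicate 1 or 4 or adult replicate 2 or 3. Mfng, a glycosyltransferase that modifies Notch receptors and belongs to both lists, had levels of 8.48, 8.38, 8.23 and 8.33 in the 4 E18.5 samples and 4.53, 4.96 and 4.05 in the 3 adult samples, above background in 1 of 3 adult samples. It fell by 3.84 ± 0.18 (adjusted p = 1e-09) and stood at -3.90 (adjusted p = 0.0021) with the acinar term. Gfra3, a receptor of progenitors, was at least 1.90-fold lower, Sox9, also a duct gene, at least 1.58-fold lower and Pax4, a factor of early beta cells, at least 1.19-fold lower. Hes6, a Notch-related repressor, fell by 0.71 ± 0.10 and Gadd45a, a stress gene also induced by Neurog3, by 1.46 ± 0.15. Neurog3 itself fell by 1.04 ± 0.34 (adjusted p = 0.025), from 7.47, 7.503, 7.16 and 6.56 to 6.82, 6.58 and 4.99, and the ages overlap. Its adjusted p was 0.059, 0.062 and 0.13 without E18.5 replicate 1, E18.5 replicate 2 or adult replicate 3. Notch1, a receptor, fell by 0.75 ± 0.16 (adjusted p = 0.002), and the only member of the Notch list that rose was Dner, a Notch ligand of neurons, at 0.62 ± 0.11.

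**Figure D4:**
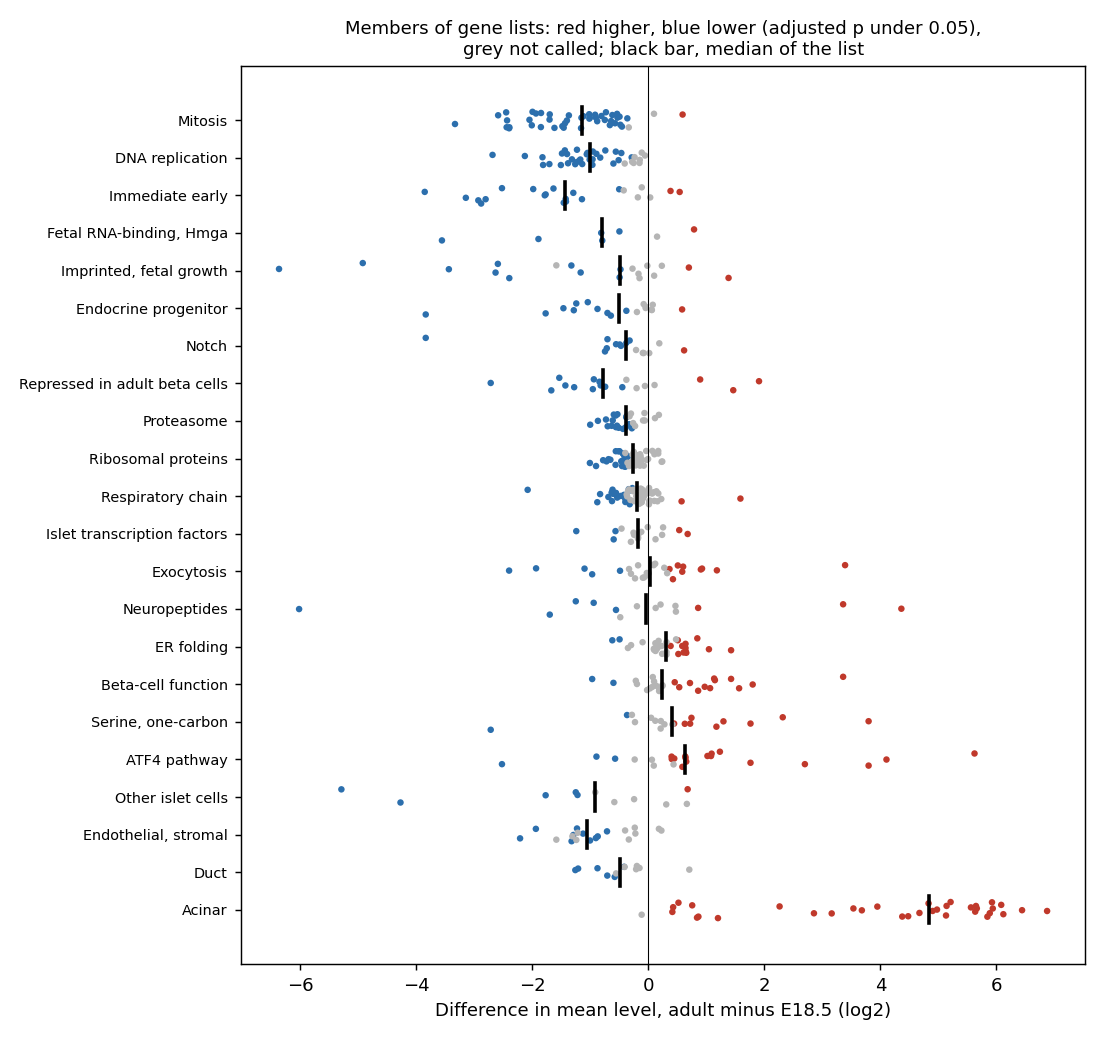
Difference in mean log2 level, adult minus E18.5, for the tested members of 22 gene lists; red points rose, blue points fell, grey points did not pass, and the black bar is the median of a list. Medians run from -1.44 for the immediate early genes to 4.83 for the acinar markers.

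Division genes fell almost throughout. Of 39 genes of DNA replication 0 rose, 31 fell and 8 did not pass the test (median -1.01), and of 46 genes of mitosis 1 rose, 43 fell and 2 did not pass the test (median -1.14), against 21.3% lower and a median of -0.0095 over all genes. Cenpa (chromosome 5), the histone variant of centromeres, had levels of 9.10, 9.55, 9.18 and 9.81 in the 4 E18.5 samples and 5.44, 6.40 and 6.40 in the 3 adult samples and fell 10.1-fold (adjusted p = 6.3e-07). Prc1, a spindle protein, fell 6.02-fold, Anln of the contractile ring, above background in 2 of 3 adult samples, 5.44-fold, Top2a, the topoisomerase of dividing cells, 4.14-fold and the kinase gene Cdk1, above background in 2 of 3 adult samples, 3.61-fold. Every adult sample lay below every E18.5 sample in each of these. Spc25, a kinetochore protein, was the member that rose, by 0.59 ± 0.16 (adjusted p = 0.01), but median centring gave a p of 0.065. In the replication list, Uhrf1, which keeps DNA methylation through replication, had levels of 8.49, 8.65, 8.22 and 8.40 in the 4 E18.5 samples and 5.28, 5.501 and 6.48 in the 3 adult samples and fell 6.44-fold. The helicase gene Mcm5 fell 4.38-fold, the licensing factor gene Cdt1 3.55-fold, Mcm6 2.85-fold, Orc6 of the origin recognition complex 2.61-fold and the maintenance methyltransferase gene Dnmt1 2.40-fold.

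The fall of the division genes was not steady. The median of the replication list stood at -0.71 at P1, -0.20 at P10 and -1.01 in adults, each relative to E18.5, and that of the mitosis list at -0.58, -0.26 and -1.14. Uhrf1 had a mean level of 8.44 at E18.5, went to 6.98 at P1, back to 8.32 at P10 and ended at 5.75. The P1 level was thus lower than both neighbours, and the lowest level was that of adults.

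Replication genes are classic targets of the E2F factors, which open S phase. RefSeq promoters (build GRCm38.p6, 250 bases before to 50 after each start) were found for 34 of the 39 genes. They were searched on both strands for TTTGGCGC or TTTCCCGC. A gene with either in any of its promoters was counted once. The letters stood in 10 of these replication genes (29.4%) and in 3 of 37 mitosis genes (8.11%). The share was 3.05% of all tested genes with a promoter and 1.80% of all genes with a promoter. Among the replication genes that fell, 7 of 29 held them, and Gins3, Mcm7 and E2f2, which did not pass the test, held them too. A match is a description of the letters and not a measured site. The promoters of 3 replication genes that fell are shown, to show where in each the letters lie, with capitals for the searched letters or their reverse complement. They are Mcm5 at chr8:75109259-75109558 on the plus strand, Mcm6 at chr1:128359656-128359955 on the minus strand, which holds 2 copies, and Cdt1 at chr8:122567765-122568064 on the plus strand, where the letters follow the start.
Mcm5: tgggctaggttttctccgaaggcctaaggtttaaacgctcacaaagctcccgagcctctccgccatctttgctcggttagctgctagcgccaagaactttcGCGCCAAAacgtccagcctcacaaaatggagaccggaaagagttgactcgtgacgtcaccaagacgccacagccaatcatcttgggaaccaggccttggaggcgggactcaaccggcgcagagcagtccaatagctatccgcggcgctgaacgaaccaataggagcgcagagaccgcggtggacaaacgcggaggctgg
Mcm6: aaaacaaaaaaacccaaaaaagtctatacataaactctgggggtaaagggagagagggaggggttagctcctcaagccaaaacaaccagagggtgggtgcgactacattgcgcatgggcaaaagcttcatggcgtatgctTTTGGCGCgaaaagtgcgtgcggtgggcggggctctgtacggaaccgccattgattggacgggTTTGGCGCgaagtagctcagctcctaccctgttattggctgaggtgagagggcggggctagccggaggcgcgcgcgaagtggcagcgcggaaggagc
Cdt1: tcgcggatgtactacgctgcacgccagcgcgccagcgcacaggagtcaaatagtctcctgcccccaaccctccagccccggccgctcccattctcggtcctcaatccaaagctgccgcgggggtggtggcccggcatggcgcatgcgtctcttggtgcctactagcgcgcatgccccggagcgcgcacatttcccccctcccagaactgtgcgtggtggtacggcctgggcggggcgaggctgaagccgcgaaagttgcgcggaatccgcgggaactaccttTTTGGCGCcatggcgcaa

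**Figure D5:**
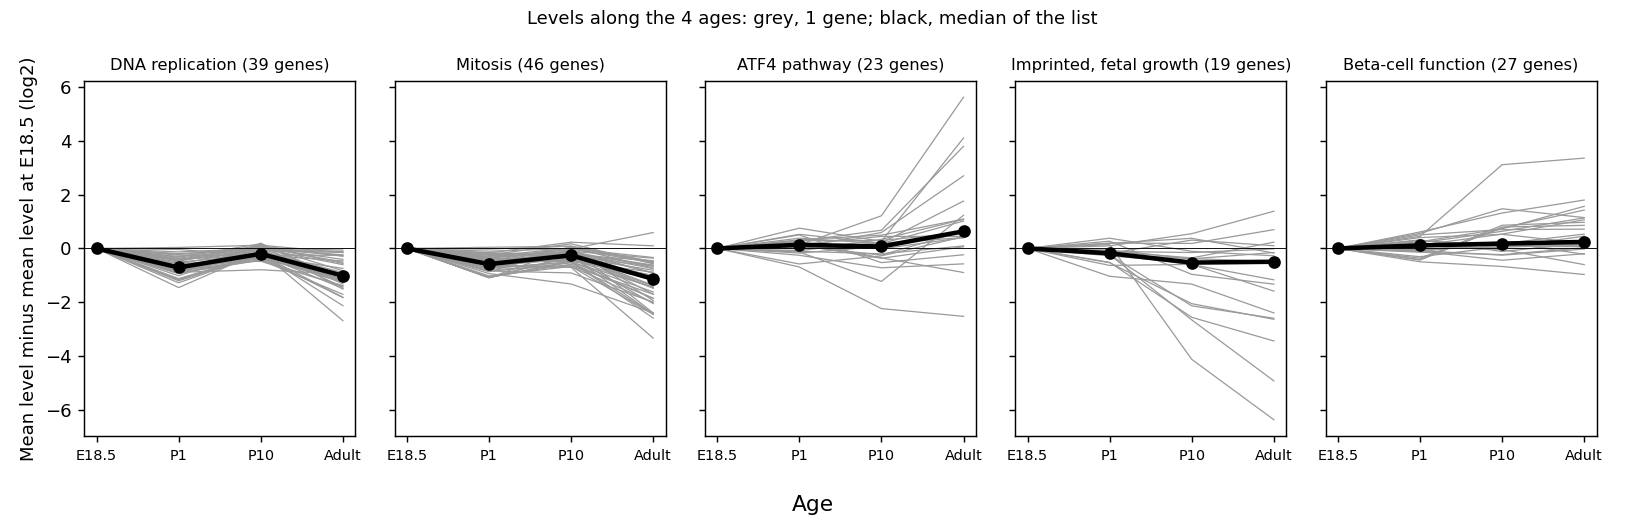
Mean log2 level minus the mean at E18.5 along the 4 ages for 5 gene lists; grey lines are genes and the black line is the median of the list. The replication and mitosis medians dip at P1 (-0.71 and -0.58), lie nearer to 0 at P10 and are lowest in adults, and the ATF4 pathway median leaves 0 mainly between P10 (0.072) and adults (0.64).

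Replication-dependent histone genes were lower for H2A. Of 13 H2A cluster genes tested 9 fell and 0 rose, with a median of -2.46. The H2A genes were singled out after the values were seen. Of 41 clustered H2A, H2B, H3 and H4 genes 12 fell and 9 rose, against 21.3% and 18.1% of all genes. H2ac7 fell 9.69-fold, H2ac22 9.05-fold and H2ac12 8.93-fold, and the levels of H2ac7 were 11.05, 10.76, 9.96 and 10.59 in the 4 E18.5 samples and 7.14, 7.35 and 7.44 in the 3 adult samples. These genes are near-identical copies in a cluster, so a probe may read several of them and the members are not separate evidence.

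Regulators of entry into the cycle moved both ways. Of 18 G1 cyclins and inhibitors 3 rose (16.7%), 6 fell (33.3%) and 9 did not pass the test, against 18.1% and 21.3% over all genes. With median centring the counts of this list were 1 higher and 7 lower. Ccnd1, a D-type cyclin, had levels of 7.14, 7.98, 7.503 and 6.72 in the 4 E18.5 samples and 9.36, 9.52 and 9.25 in the 3 adult samples and rose 4.11-fold (adjusted p = 5.8e-06), against the direction of the division genes. Ccnd2, the main D-type cyclin of beta cells after birth, rose by 0.52 ± 0.14 (adjusted p = 0.0096), with an adjusted p of 0.052 with median centring. The inhibitor gene Cdkn1a rose by 0.58 ± 0.20 (adjusted p = 0.029), and the ages overlap. Its call ended without E18.5 replicate 1 or 4 or adult replicate 2 or 3, with adjusted p from 0.069 to 0.18. With median centring its adjusted p was 0.10. The kinase gene Cdk2 fell by 1.78 ± 0.14 (adjusted p = 2.3e-07) and the inhibitor gene Cdkn2d by 0.85 ± 0.13. Ezh2, a histone methyltransferase that keeps Cdkn2a silent in young beta cells, was at least 1.13-fold lower (adjusted p = 0.019), with adjusted p of 0.053, 0.051 and 0.081 without E18.5 replicate 2, E18.5 replicate 3 or adult replicate 1.

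Most of the genes tested from the ATF4 pathway, the amino acid arm of the stress response, were higher in adults. ATF4 is a transcription factor made when the initiation factor eIF2 is phosphorylated, and it raises genes for amino acid uptake and synthesis, transfer RNA charging and, under lasting stress, cell death. Of 23 genes of this pathway 16 rose, 3 fell and 4 did not pass the test (median 0.64, against 18.1% higher over all genes). Nupr1 (chromosome 7), a small chromatin protein induced by stress that is also strongly expressed in stressed acinar cells, had levels of 4.84, 4.96, 5.19 and 4.75 in the 4 E18.5 samples and 10.14, 10.88 and 10.65 in the 3 adult samples, and 2 of the E18.5 values exceeded background. It rose 49.3-fold (adjusted p = 1.5e-10) and stood at 4.23 (adjusted p = 0.0005) with the acinar term. Chac1 (chromosome 2), an enzyme that degrades glutathione, had levels of 6.36, 6.37, 6.31 and 7.04 in the 4 E18.5 samples and 9.81, 11.15 and 10.92 in the 3 adult samples and rose 17.2-fold. Atf5, a related factor, had levels of 8.47, 8.53, 8.65 and 8.69 in the 4 E18.5 samples and 11.31, 11.25 and 11.29 in the 3 adult samples, a 6.49-fold rise with almost no spread among adults. Atf4 itself rose by 1.02 ± 0.15 (adjusted p = 0.0001). Eif4ebp1, a repressor of translation, rose 2.35-fold and Slc3a2, the shared chain of amino acid transporters, 2.13-fold, while Trib3, a pseudokinase, was at least 1.36-fold higher.

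Other members of the pathway were not called higher in the fit reported here. Ddit3, which encodes the death-linked factor CHOP, stood at 0.43 ± 0.18 (adjusted p = 0.071), with adult levels of 7.39, 7.51 and 7.38, all above the E18.5 levels of 7.09, 6.68, 6.91 and 7.28. It passed without E18.5 replicate 4 (adjusted p = 0.039) and with the mean of its probes (0.49, adjusted p = 0.020). It also passed with only the 7 arrays (adjusted p = 0.031), array weights (adjusted p = 0.034) and the replicate block (adjusted p = 0.045). Ppp1r15a, which undoes eIF2 phosphorylation, fell by 0.90 ± 0.28 (adjusted p = 0.019), but leaving out E18.5 replicate 1 or adult replicate 3 gave a p of 0.053 or 0.11. Atf3, also an immediate early gene, was at least 4.77-fold lower in adults, and Stc2, a secreted glycoprotein, fell by 0.57 ± 0.095.

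Enzymes of serine, folate and amino acid metabolism rose in part. Of 19 such genes 9 rose, 2 fell and 8 did not pass the test (median 0.42). Aldh1l2, a folate enzyme of mitochondria, had levels of 4.56, 4.78, 5.10 and 4.59 in the 4 E18.5 samples and 8.31, 8.96 and 8.41 in the 3 adult samples, with 1 E18.5 value over background, and rose 13.9-fold (adjusted p = 5.7e-10). Asns, asparagine synthetase, had levels of 9.36, 9.17, 9.37 and 9.41 in the 4 E18.5 samples and 10.998, 11.18 and 11.09 in the 3 adult samples and rose 3.39-fold. Cbs, which makes cystathionine from homocysteine, was at least 4.23-fold higher, and Mthfd2 and Psat1, enzymes of mitochondrial folate and of serine synthesis, rose 2.45-fold and 2.26-fold. Phgdh, which opens serine synthesis, stood at 0.42 ± 0.21 (adjusted p = 0.13) and passed without adult replicate 1 (0.66, adjusted p = 0.017). Oat, ornithine aminotransferase, went against the rest, with levels of 8.94, 9.42, 9.17 and 9.38 in the 4 E18.5 samples and 6.28, 6.66 and 6.59 in the 3 adult samples and a 6.58-fold fall. With the acinar term Aldh1l2 stood at 3.45 (adjusted p = 0.0025), Asns at 1.74 (adjusted p = 0.012), Atf5 at 2.65 (adjusted p = 0.0005), Chac1 at 3.85 (adjusted p = 0.024) and Oat at -3.42 (adjusted p = 0.0066). Atf3 (adjusted p = 0.036) and Cbs (adjusted p = 0.0014) also kept their calls.

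Of 16 aminoacyl-tRNA synthetases, which charge transfer RNAs, 5 rose, 1 fell and 10 did not pass the test. With median centring the counts were 3 higher and 6 lower, so the direction of this list depended on the scaling. Mars1 had levels of 7.29, 7.40, 7.29 and 7.52 in the 4 E18.5 samples and 8.69, 8.63 and 8.82 in the 3 adult samples and rose by 1.34 ± 0.11 (adjusted p = 2.8e-07), the alanine enzyme gene Aars rose by 0.82 ± 0.12 and Sars by 0.65 ± 0.11. Iars rose by 0.41 ± 0.12 (adjusted p = 0.013), with an adjusted p of 0.12 with median centring. Gars, the glycine enzyme gene, fell by 0.53 ± 0.10 (adjusted p = 0.00088). The letters TGATGNAAT, which ATF4 and C/EBP partners can bind, were searched on both strands of the promoters. They stood in 2 of 19 genes of the ATF4 list (Nupr1 and Fgf21) and in 3 of 12 synthetase genes (Aars, Iars and Gars). The share was 0.616% of all tested genes with a promoter and 1.08% of all genes with a promoter. Gars fell although its promoter holds the letters. The promoters of Nupr1 (chr7:126625421-126625720, minus strand), Aars (chr8:111033592-111033891, plus strand) and Iars (chr13:49681880-49682179, plus strand) are shown from the same RefSeq table. These 3 genes rose, as did Fgf21, whose promoter is not shown. In Iars the letters follow the start. Capitals mark the searched letters or their reverse complement.
Nupr1: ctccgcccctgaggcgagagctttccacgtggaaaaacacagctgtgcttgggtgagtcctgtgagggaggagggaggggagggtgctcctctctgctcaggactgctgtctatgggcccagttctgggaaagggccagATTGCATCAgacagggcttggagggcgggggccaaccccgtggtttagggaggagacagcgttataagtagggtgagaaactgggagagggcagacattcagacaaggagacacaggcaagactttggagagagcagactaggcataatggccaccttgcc
Aars: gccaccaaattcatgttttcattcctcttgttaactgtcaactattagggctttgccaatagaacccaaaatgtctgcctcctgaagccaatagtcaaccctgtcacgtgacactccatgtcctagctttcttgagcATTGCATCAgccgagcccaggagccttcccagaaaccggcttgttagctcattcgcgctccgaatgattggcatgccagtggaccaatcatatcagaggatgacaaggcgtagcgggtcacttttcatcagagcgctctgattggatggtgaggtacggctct
Iars: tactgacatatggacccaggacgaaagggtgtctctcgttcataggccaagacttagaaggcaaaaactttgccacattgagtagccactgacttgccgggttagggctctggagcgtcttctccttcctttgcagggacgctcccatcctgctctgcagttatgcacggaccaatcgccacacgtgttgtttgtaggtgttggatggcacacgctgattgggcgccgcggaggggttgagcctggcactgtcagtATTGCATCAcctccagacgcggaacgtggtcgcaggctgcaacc

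Protein folding genes moved less. Of 31 genes of folding and stress in the endoplasmic reticulum 12 rose, 2 fell and 17 did not pass the test (median 0.31). Dnajb9, a cochaperone of BiP, rose 2.06-fold, the stress factor gene Xbp1 by 0.58 ± 0.11 and Selenos, of the degradation channel, by 0.64 ± 0.11. The main chaperone gene Hspa5, which encodes BiP, stood at 0.095 ± 0.20 and did not pass. The count that fell was 1 without E18.5 replicate 3 or 4, or without adult replicate 1 or 2, and 5 without adult replicate 3. Hsp90b1, which encodes GRP94, fell by 0.50 ± 0.10 (adjusted p = 0.0016), and the disulfide isomerase gene Pdia4 fell by 0.62 ± 0.19 (adjusted p = 0.019). Leaving out E18.5 replicate 3 or 4 or adult replicate 1 or 2 ended the Pdia4 call, with adjusted p from 0.053 to 0.066. Bhlha15, a secretory cell factor that acinar cells also express, rose by 0.84 ± 0.18. Of 23 heat shock chaperones 7 rose, 2 fell and 14 did not pass the test, led by Hsph1 with levels of 8.37, 8.49, 8.69 and 8.34 in the 4 E18.5 samples and 9.61, 9.80 and 10.32 in the 3 adult samples, a 2.71-fold rise.

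Genes of energy metabolism moved both ways, in part at the rate of all genes. Of 15 genes of glycolysis 3 rose (20%), 5 fell (33.3%) and 7 did not pass the test. Of 32 genes of the citrate cycle and its shuttles 5 rose (15.6%), 8 fell (25%) and 19 did not pass the test. These citrate cycle shares lie near the 18.1% and 21.3% over all genes. Of 70 genes of the respiratory chain 2 rose (2.86%), 23 fell (32.9%) and 45 did not pass the test, so rises were fewer and falls more frequent than over all genes. Eno2, the neuronal enolase, had levels of 5.91, 5.71, 5.92 and 5.33 in the 4 E18.5 samples and 8.84, 8.71 and 8.67 in the 3 adult samples, rose 8.15-fold (adjusted p = 8.2e-10) and stood at 3.11 (adjusted p = 0.0017) with the acinar term. Gapdh fell by 0.68 ± 0.10 (adjusted p = 0.00013), Tpi1 fell by 0.65 ± 0.12 and Pfkl, a liver-type phosphofructokinase, by 0.96 ± 0.13. Cox7a1, a subunit of cytochrome c oxidase typical of muscle, fell 4.23-fold and was above background in 1 of 3 adult samples, while Cox6a2, another muscle-type subunit, rose 3.01-fold. The ATP synthase gene Atp5b fell by 0.83 ± 0.15 (adjusted p = 0.0005) and Uqcrc1 of complex III by 0.88 ± 0.14. In the citrate cycle list the count that rose was 3 without adult replicate 3, and the count that fell was 4 without E18.5 replicate 2, or without adult replicate 2, and 5 without adult replicate 3. With median centring that list had 1 higher and 10 lower, and its median of 0.11 turned to -0.049.

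Of 32 genes of fatty acid handling 6 rose (18.75%), 7 fell (21.9%) and 19 did not pass the test. These shares lie near the 18.1% higher and 21.3% lower over all genes. The thioesterase gene Acot1 fell by 1.22 ± 0.19 (adjusted p = 0.00017). Without adult replicate 3, 3 fatty acid genes rose and 4 fell. Of 19 genes of cholesterol supply 3 rose and 3 fell (15.8% each), and 13 did not pass the test. For so short a list these shares lie near those over all genes. Insig1, which retains the sterol sensor in the endoplasmic reticulum, rose 3.12-fold. In that list the count that rose was 5 without E18.5 replicate 4 and the count that fell 1 without adult replicate 3. Of 25 antioxidant genes 3 rose (12%), 9 fell (36%) and 13 did not pass the test. The secreted peroxidase gene Gpx3 fell 3.29-fold, from levels of 11.39, 11.63, 11.44 and 11.35 to 9.75, 9.94 and 9.52, and the glutathione transferase gene Gstm1 rose 3.17-fold.

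Some genes of protein turnover and translation fell by small amounts. Of 28 proteasome subunits 0 rose, 18 fell and 10 did not pass the test (median -0.39), with Psma5 at levels of 10.64, 10.70, 10.89 and 10.68 in the 4 E18.5 samples and 9.75, 9.75 and 9.67 in the 3 adult samples, a 2.00-fold fall, and Psmb1 at -0.73 ± 0.10. Of 57 ribosomal protein genes 0 rose, 22 fell and 35 did not pass the test (median -0.26), led by Rplp0 at -1.01 ± 0.13 and Rpl13a at -0.90 ± 0.12. The count of ribosomal protein genes that fell was 13 without adult replicate 2. Ribosomal protein genes have many near-identical pseudogene copies that a probe may also read. The members of both lists that passed fell, and both medians lie nearer to 0 than those of the division genes.

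Adult beta cells are known to keep some widely expressed genes silent, among them lactate dehydrogenase. Of 18 such genes 3 rose, 11 fell and 4 did not pass the test (median -0.78). Ldha had levels of 5.37, 6.63, 6.14 and 5.31 in the 4 E18.5 samples and 4.83, 4.53 and 4.40 in the 3 adult samples, at background in all adults and at least 1.95-fold lower there (adjusted p = 0.0015). Its E18.5 levels were highest in replicates 2 and 3, in which stromal markers were highest, and the part of stromal RNA was not tested. Tgm2, a transglutaminase, fell 3.19-fold, and Acot7, a thioesterase, stood at -0.38 ± 0.28 (adjusted p = 0.31). The members that rose were the peptidase gene Dpp4, 2.76-fold, the adhesion gene Cd44, 1.86-fold, and Aldh1a3, a retinal dehydrogenase, at least 3.10-fold. Aldh1a3 had adult levels of 5.59, 6.25 and 7.53, and replicate 3 was highest.

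Immediate early genes, which are switched on within minutes by calcium, growth factors or the handling of cells, were lower in adults. Of 22 such genes 2 rose, 16 fell and 4 did not pass the test (median -1.44). Egr4 had levels of 9.53, 8.51, 8.87 and 7.63 in the 4 E18.5 samples and 4.99, 4.73 and 4.62 in the 3 adult samples, above background in 1 of 3 adult samples, and fell 14.48-fold. Npas4, a factor induced by calcium entry, fell 7.38-fold with 2 of 3 adult samples above background, Arc, a synaptic gene of the same kind, 8.86-fold with 1 of 3, and Zfp36, which destabilises messages, 7.63-fold. Fos, with levels of 12.90, 12.55, 12.49 and 12.22 in the 4 E18.5 samples and 11.78, 11.69 and 10.27 in the 3 adult samples, fell by 1.29 ± 0.29 (adjusted p = 0.0028), and Jun fell by 1.43 ± 0.32 (adjusted p = 0.0025). The members that rose were Crem, a cyclic AMP-responsive factor, by 0.54 ± 0.11, and Egr3, at least 1.15-fold and with adjusted p of 0.078 and 0.12 without E18.5 replicate 3 or adult replicate 1.

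The mean of the immediate early list was 7.46 to 8.45 over the E18.5 samples, lowest in replicate 4, and 6.02 to 6.83 over the adult samples, lowest in replicate 3. The mean of the other islet markers was lowest in the same replicates of each age. It ran from 9.78 to 10.50 over the E18.5 samples and from 8.23 to 9.45 over the adult samples. These ranges do not overlap, so a term of that mean shares variation with age. A smaller age difference in that fit therefore cannot show what these genes follow. With that mean as an added term Egr4 stood at -2.84 (adjusted p = 0.0022), Npas4 at -1.14 (adjusted p = 0.027) and Arc at -1.86 (adjusted p = 0.016) and Zfp36 at -1.20 (adjusted p = 0.028), all smaller than without it, while Fos stood at 0.14 (adjusted p = 0.75), Jun at 0.13 (adjusted p = 0.79) and Dusp1, a phosphatase gene that fell by 1.42 ± 0.35 in the fit without it, at 0.36 (adjusted p = 0.33). Fos, Jun and Dusp1 lost their calls in that fit, and the part of dissociation in these levels was not tested.

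Genes of antigen presentation rose in part. Of 26 interferon and antigen-presentation genes 9 rose (34.6%), 5 fell (19.2%) and 12 did not pass the test, against 18.1% and 21.3% over all genes. Ifi27 rose 4.28-fold, Tap2, a peptide transporter, 2.48-fold and B2m, the shared chain of class I molecules, 2.43-fold, with Tap2 levels of 6.76, 6.68, 6.80 and 6.78 in the 4 E18.5 samples and 8.08, 7.86 and 8.24 in the 3 adult samples. Irf1, an interferon-induced factor, fell by 1.19 ± 0.29 (adjusted p = 0.0047), and Psme1, a proteasome activator, by 0.99 ± 0.14. Tap2 stood at 1.78 (adjusted p = 0.0093) with the acinar term.

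Of 16 circadian clock genes 7 rose (43.75%), 4 fell (25%) and 5 did not pass the test, against 18.1% and 21.3% over all genes. With median centring 4 clock genes were higher and 4 lower. The count that rose was 4 without E18.5 replicate 2 or 4, or without adult replicate 2. Dbp, a clock output factor, rose by 1.01 ± 0.19 (adjusted p = 0.00064) and Nr1d2, a repressor of the clock, by 0.89 ± 0.15, whereas Per1 fell by 1.12 ± 0.22 and Nfil3 by 1.52 ± 0.21. The hour at which animals were killed is not given, so age and hour cannot be told apart for these genes. The cold-induced RNA-binding genes Cirbp and Rbm3 went opposite ways, Cirbp rising by 0.98 ± 0.12 and Rbm3 falling from levels of 8.42, 8.58, 9.20 and 9.05 to 6.89, 7.08 and 7.77. Of 20 regulators of G protein signalling and dual specificity phosphatases 4 rose (20%), 7 fell (35%) and 9 did not pass the test. Over all genes 18.1% rose and 21.3% fell. Rgs9 was up 3.71-fold.

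Large rises outside the lists and the acinar markers, chosen after their values were seen, were led by Angptl7, a secreted angiopoietin-like protein, with levels of 5.64, 5.53, 5.62 and 5.54 in the 4 E18.5 samples and 9.94, 9.57 and 9.79 in the 3 adult samples, a rise of 18.2-fold. Dapl1, above background in 1 of 4 E18.5 samples, rose 12.51-fold, Serpina10, an inhibitor of coagulation factors, 10.1-fold, Hapln4, a link protein of the matrix, 9.63-fold, the defensin gene Defb1 9.14-fold, the alcohol dehydrogenase gene Adh1 7.92-fold and Spon2 7.58-fold. With the acinar term Angptl7 stood at 4.18 (adjusted p = 0.0017), Serpina10 at 3.45 (adjusted p = 0.0005), Hapln4 at 3.77 (adjusted p = 0.0012) and Adh1 at 2.68 (adjusted p = 0.0027). Gp9, a platelet glycoprotein gene that fell 10.3-fold and was above background in 2 of 3 adult samples, stood at -3.48 (adjusted p = 0.003).

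The middle ages place these changes. Among genes that rose over the span, the largest step lay between E18.5 and P1 for 230, between P1 and P10 for 659 and between P10 and adults for 841. Among those that fell the numbers were 293, 847 and 896. The steps span unequal times, and these counts are a description. P10 against P1, which shares no sample with the comparison, called 509 genes higher (5.33% of those tested) and 562 lower (5.88%). Of the genes higher over the span, 21.3% were also higher at P10 than at P1, which is 72.3% of that shorter list. Of the genes lower over the span, 22.2% were also lower then, which is 80.2% of the shorter list.

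Single genes show the timing. Ucn3 averaged 6.63 at E18.5 and 7.08 at P1, then 9.75 at P10 and 9.99 in adults, so most of its rise lay between P1 and P10. Nupr1 had 4.93, 5.07, 6.15 and 10.56, and its rise lay mostly after P10. Dlk1, at 10.82, 10.96, 6.69 and 4.45, fell in both later steps.

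A comparison of the ends leaves out changes that return. Of 500 genes called between E18.5 and P1, 177 were not called over the span, 99 of them high and 78 low at P1. Arrdc4, an arrestin-like gene induced by glucose, had mean levels of 6.83, 8.51, 6.69 and 6.39 at the 4 ages and stood at -0.43 ± 0.22 (adjusted p = 0.14) over the span, with an adjusted p of 0.026 without adult replicate 3. Txnip, a thioredoxin inhibitor induced by glucose, had 9.62, 10.84, 9.14 and 9.51 and stood at -0.10 ± 0.21 (adjusted p = 0.72). In the other direction, 2040 of the 3766 genes called over the span passed in no single step.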

How the data were processed

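Biotin-labelled RNA of each sample was hybridised to 1 Illumina array, per the labels' protocols. The authors deposited intensity values on a linear scale for 25697 probes; how they scaled them is not given in the sources used here, and the values were taken as not yet background-corrected. Another table, whose 24 columns match no sample's labels, was not used, and without its detection p-values background was estimated from the signals. Normexp background correction (offset 16), quantile normalization and log2 were applied; the offset makes fold changes of dim genes smaller than they are. The background limit of an array was set at the 99th percentile of a normal curve placed at the peak of its signal distribution with the spread of the signals below it. Probes above background on at least 2 of 12 arrays were kept (12978), and 1 probe per gene, that of the highest mean level, entered the test, 2470 genes having several. Of the probes, 23978 carried 1 gene symbol in the platform table, 0 several and 1719 are unnamed here; 23962 gene IDs were found in the RefSeq table, which gave current names and chromosomes. The highest share of probes with identical values in a pair of samples was 0.950%.

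Genes were tested with limma 3.58.1 in R 4.3.3 (lmFit and eBayes, two-sided, 12 samples, age as a factor with 4 levels, 8 residual degrees of freedom). Where no sample of an age was above background, the fold is a bound ("at least"): the dim age is set to the lowest detected level of each of its arrays, or to the measured level where that is higher, averaged over arrays. The text names part of the genes taken by a rule: the 15 largest rises and falls whose samples do not overlap, the 5 smallest p per list and a fixed set; further members of the lists were named after their values were seen. Members and the 38 lists were chosen with earlier results of these data known, and the lists received no set test. Alternatives were other background corrections and scalings, filters, averaging the probes of a gene, variance models, array weights, only the 7 arrays, the replicate number as a block, a minimum fold, marker means as terms and each sample left out. The fit was tested on simulated data. Figures used matplotlib 3.10.9 in Python 3.11.15.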

Additional observations from a re-analysis of the deposited data

Results flagged for a closer look

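Of 216 genes examined at E18.5, 13 had 1 of the 4 E18.5 samples far from the other 3, by Dixon's ratio of the gap to the range at its 95% critical value; chance gives about 1 in 20. Groups of 3 were not examined. E18.5 replicate 1 was low for G6pc2 (10.34, with the nearest other sample at 11.28), Chga (11.29, with the nearest other sample at 11.92), Slc2a2 (9.64, with the nearest other sample at 10.19) and Pdia4 (8.95, with the nearest other sample at 9.71), and high for Gast (6.46, with the nearest other sample at 5.63). E18.5 replicate 4 was low for Nkx6-1 (9.69, with the nearest other sample at 10.10), Sall4 (6.37, with the nearest other sample at 6.44), Arid3b (6.25, with the nearest other sample at 6.47), Pfkl (8.60, with the nearest other sample at 8.94) and Jun (8.02, with the nearest other sample at 8.67), and high for Chac1 (7.04, with the nearest other sample at 6.37) and Crem (5.86, with the nearest other sample at 5.57). E18.5 replicate 2 was high for Gpr119 (5.63, with the nearest other sample at 5.28). All values are log2 levels.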

How the results depend on the processing

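The counts over all genes and over all lists together stayed within 1.5 times those reported in the alternatives run, with the exceptions given here. Of 76 counts of single lists in 1 direction, 23 moved by more than that when 1 sample was left out, 16 of them from a count of 3 or fewer. A minimum change of 1.5-fold in the test left 641 genes called, 283 higher and 358 lower, 150 list members and 85 genes also called between P1 and P10, because it asks for a larger change. The acinar term left 138, 61, 77, 32 and 37 of the same, with 138 at 2-fold or more, and the mean of other islet markers as a term left 1351, 633, 718, 230 and 534. An offset of 50 gave 401 genes at 2-fold or more. Leaving out 1 sample gave 3141 to 3537 genes called, 1468 to 1642 higher, 1672 to 1895 lower, 701 to 763 at 2-fold or more, 397 to 443 list members and 718 to 864 also called between P1 and P10.

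Of 191 called genes carried through every alternative, 128 kept their call with the other islet term and 110 with the minimum change; in the remaining alternatives 19 lost their call at least once, and 12 uncalled genes gained one. Csnk1d, a clock kinase gene, stood at -0.12 (adjusted p = 0.49) with only the 7 arrays. Try10, Reg1, Cel, Cela2a and Nr5a2 are part of the acinar mean, so their values with that term are no separate evidence. The same holds for markers of other islet cells, such as Gcg, with the other islet term. Differences turned sign as follows, and the cause was not tested. With the acinar term these were Try10 -0.14, Reg1 -1.11, Cel -0.42, Cela2a -1.38, Klk1b5 -0.67, Pcsk1 0.037, Pdx1 0.44, Neurod1 -0.18, St18 -0.34, Ppy -1.48, Notch1 0.14, Cdkn1a -0.17, Ezh2 0.026, Hspa5 -0.65, Atp5b 0.24, Rgs16 -0.46, Nr5a2 0.26, Dusp26 -0.49 and Pdia6 -0.016. With the other islet term they were Ins2 -0.0072, Slc30a8 -0.030, Abcc8 -0.000036, Pyy 0.69, Gcg 3.15, Sst 0.54, Neurog3 0.68, Ppp1r15a 0.31, Hspa5 -0.22, Acot7 0.98, Fos 0.14, Jun 0.13, Dusp1 0.36, Nr5a2 0.14 and Pdia6 -0.53. With median centring they were Slc30a8 -0.0022, Abcc8 -0.12, Neurod1 -0.049, Sst 0.022, Hspa5 -0.084 and Pdia6 -0.062, with the deposited values as log2 Abcc8 -0.059, Sst 0.079, Hspa5 -0.022 and Nr5a2 0.020, and with array weights Abcc8 -0.011 and Mafa -0.0071. Leaving out 1 sample, ranges that held both signs were -0.087 to 0.14 for Abcc8, -0.69 to 0.065 for Acot7, -1.30 to 0.73 for Gcg, -0.058 to 0.57 for Mafa, -0.12 to 0.060 for Pcsk1, -0.12 to 0.27 for Pdia6, -0.011 to 0.26 for Slc2a2, -0.39 to 0.037 for Sst and -0.36 to 0.18 for Txnip.

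The labels number replicates from 1 in each age. With the replicate block 3647 genes were called, 3399 of them among those reported, and Abcc8 -0.087 and Pcsk1 0.060 turned sign. Deviations of samples sharing a number correlated with r of 0.241, 0.102 and 0.0355, and those of replicates 1 to 3 with different numbers with r from -0.204 to 0.118. Each deviation is taken from the mean of a few samples, so these values cannot decide whether the number pairs them. Probes near background limit what can be called among dim genes.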

Other observations

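Histone genes of the replication-dependent clusters, described after their values were seen, did not move as 1 group. Against the 9 H2A genes that fell, 9 of 41 clustered H2A, H2B, H3 and H4 genes rose and 12 fell, against 18.1% and 21.3% of all genes. Most of those that rose were H4 genes, H4c8 by 0.84 ± 0.19 (adjusted p = 0.0029), H4c11 by 0.77 ± 0.15 (adjusted p = 0.0011), H4c6 by 0.73 ± 0.14 (adjusted p = 0.00084) and H4c12 by 0.72 ± 0.18 (adjusted p = 0.0052), with mean levels of H4c8 of 7.17 at E18.5 and 8.01 in adults. The copies are near-identical, so the genes read by each probe are uncertain.

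At P1, Creld2 and Pdia6, genes of the endoplasmic reticulum, had mean levels of 9.19 and 7.77, under those at E18.5 (10.502 and 8.80) and in adults (10.15 and 8.92). Rgs16 and Dusp26 were higher at P1, at 8.999 and 7.61, than at E18.5 (7.51 and 6.17) and in adults (8.11 and 6.70). Rgs16 was called over the span without adult replicate 1 (0.98, adjusted p = 0.0023). Without adult replicate 3, Creld2 and Dusp26 were called too, at -0.73 (adjusted p = 0.0091) and 0.92 (adjusted p = 0.0035).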
